A study of Mus musculus with 18 samples.

Results

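Pressure load was examined in the left ventricle of MHC-cycD2 transgenic mice by comparing 3 libraries from mice with transverse aortic constriction (TAC, replicates 1, 2 and 4) with 5 libraries from sham-operated mice of the same genotype (replicates 1 to 5). These 8 libraries were chosen by their labels out of 18 in the series, and the results cover the 14241 autosomal genes that passed the low-count filter. All the mice were (DBA/2J x C3HeB/FeJ)F1 hybrids, and both groups were labelled as carriers of a cyclin D2 transgene under the MHC promoter, which is active in heart muscle cells, so what they share includes the transgene. For TAC a suture was tied around the transverse aorta and a needle at 8 weeks of age, with a 25G needle in males and a 26G needle in females. The labels describe a sham operation for TAC and one for an aortocaval shunt and do not say which one these sham mice had. They give neither the sex of a mouse nor whether each library came from its own animal, so the p-values reflect the variation among these samples, some of which may be technical. The other libraries, 5 WT without surgery and 5 with an aortocaval shunt, entered only the estimate of the spread. WT also serves below as a level for Ccnd2, the cell cycle genes, Bdh1 and Ptprt.

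Each library held 23630932 to 24740087 gene counts in TAC and 22162960 to 26521057 in sham. Ccnd2 encodes cyclin D2, the protein of the transgene, and lies on chromosome 6 (127125162 to 127152193, GRCm38). Its level was 22050.0, 228 and 25843 CPM in TAC 1, 2 and 4, against 30478, 28597, 21150.1, 26126 and 21129 CPM in sham 1 to 5. The library labelled TAC 2 was therefore close to WT, where Ccnd2 was at 140 to 189 CPM. Fold changes of named genes and list counts of the main fit are given with and without it. Counts of genes without overlap and fits with the Y-linked covariate include TAC 2. Other measures also set libraries apart. Xist, expressed from an inactive X chromosome, had 3659, 2644 and 4 counts in TAC 1, 2 and 4 and 5 to 11 in sham, and the Y-linked Ddx3y had 4, 9 and 1987 counts in TAC 1, 2 and 4 and 2039 to 2568 in sham, so that TAC 4 was the only TAC library with the pattern of the sham libraries. The clock gene Arntl was above Dbp, which peaks at the opposite time of day, in all 3 TAC libraries and in sham 1 and 2, and below it in sham 3 to 5. Reads with no feature made up 13.6% to 14.9% in TAC and 14.9% to 17.9% in sham. The labelled tissue was matched by its markers: the summed level of 10 heart muscle cell genes was 74417 to 103301 CPM in TAC and 101235 to 114576 CPM in sham, with none under 10 counts in all 8 libraries.

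A ventricle that pumps against a raised pressure works under greater wall stress. Heart muscle cells then enlarge and turn on genes typical of the fetal heart, among them the natriuretic peptides, which are hormones that lower blood pressure, and skeletal actin. Fibroblasts lay down collagen, and the muscle is known to shift away from fatty acids as its main fuel and to lower the pump that returns calcium to the sarcoplasmic reticulum.

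The promoters of 4 of the stress genes on which the comparison turns are shown first, because these genes moved together and are textbook targets of load. They are taken from RefSeq (build GRCm38.p6), run 5′ to 3′ on the gene's strand from 250 bases before to 50 after its start. Capitals mark 4 motifs, searched on both strands. The CArG box is the site of serum response factor, and the MCAT element, which TEAD factors bind, has the core CATTCC. The GATA factor site was searched as AGATAA. The TATA box was searched as TATAAA.

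Nppa, chr4:148000472-148000771, plus strand: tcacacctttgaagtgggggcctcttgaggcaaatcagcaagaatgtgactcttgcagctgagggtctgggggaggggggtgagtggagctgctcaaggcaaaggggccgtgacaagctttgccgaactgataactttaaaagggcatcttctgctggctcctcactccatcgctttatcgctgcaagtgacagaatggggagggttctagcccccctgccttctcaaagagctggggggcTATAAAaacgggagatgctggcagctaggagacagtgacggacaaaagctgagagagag

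Nppb, chr4:147985650-147985949, plus strand: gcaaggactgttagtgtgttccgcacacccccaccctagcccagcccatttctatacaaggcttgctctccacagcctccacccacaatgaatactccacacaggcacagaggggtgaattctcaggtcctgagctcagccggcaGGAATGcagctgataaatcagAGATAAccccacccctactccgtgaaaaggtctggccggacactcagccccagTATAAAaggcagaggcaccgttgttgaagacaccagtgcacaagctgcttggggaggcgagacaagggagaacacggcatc

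Acta1, chr8:123894726-123895025, minus strand: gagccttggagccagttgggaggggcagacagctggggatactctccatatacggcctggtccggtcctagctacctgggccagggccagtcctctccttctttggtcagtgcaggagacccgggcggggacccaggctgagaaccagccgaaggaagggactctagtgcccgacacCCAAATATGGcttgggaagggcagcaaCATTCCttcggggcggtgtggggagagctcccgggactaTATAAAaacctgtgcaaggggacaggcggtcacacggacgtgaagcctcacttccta

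Ankrd1, chr19:36119795-36120094, minus strand: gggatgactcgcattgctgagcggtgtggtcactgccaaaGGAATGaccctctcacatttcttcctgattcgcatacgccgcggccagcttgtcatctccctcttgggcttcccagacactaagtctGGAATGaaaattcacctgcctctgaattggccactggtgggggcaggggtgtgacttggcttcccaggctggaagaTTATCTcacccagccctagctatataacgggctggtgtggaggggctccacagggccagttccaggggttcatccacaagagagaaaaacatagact

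Nppa held a TATA box at bases 242 to 247 of its window. Nppb held an MCAT core on the minus strand at 146 to 151, a GATA site at 167 to 172 and a TATA box at 220 to 225. Acta1 held a CArG box at 178 to 187, an MCAT core at 205 to 210 and a TATA box at 244 to 249. Ankrd1 held MCAT cores on the minus strand at 41 to 46 and 128 to 133 and a GATA site on the minus strand at 204 to 209. No 2 of these matches overlapped within a window. Of all 32851 windows of this length, 1.63% held a CArG box, 14.7% an MCAT core, 11.2% a GATA site and 13.6% a TATA box. The search also covered Ankrd2, named below, whose window held only a TATA box at 222 to 227. Slc27a1, also named below, had 3 windows, and the only match was an MCAT core in window 2. A match is a description of these letters and not a bound site.

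TAC ventricles differed widely from sham ventricles. Of the 14241 autosomal genes, 2351 (16.5%) were higher and 2088 (14.7%) lower at an adjusted p under 0.05, and 709 of the higher and 305 of the lower ones differed at least 2-fold. Without TAC 2, 1567 (10.9%) were higher and 1564 (10.9%) lower among 14383 tested, and 552 of the higher and 306 of the lower ones differed at least 2-fold. Both fits together called 1424 genes (10.0%) higher and 1417 (9.95%) lower, and 0 genes were called in opposite directions. The adjusted p is that of edgeR's quasi-likelihood test with Benjamini-Hochberg adjustment over all genes tested, and ± after a log2 fold change is its SE. Levels are CPM, that is, counts divided by a library size corrected with TMM. The median log2 fold change of all autosomal genes was 0.01, and -0.01 without TAC 2. No overlap means that all TAC libraries lay above, or all below, every sham library. This held for 2086 autosomal genes (14.6%) upward and 1940 (13.6%) downward. Genes named by size had to be without overlap, and most others were named by small p.

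The counts depended on which libraries were set against each other. TAC 4 lay outside the sham range on the called side for 1956 of the 2351 higher genes (83.2%) and for 1811 of the 2088 lower ones (86.7%). Over all autosomal genes it lay above that range for 26.9% and below it for 25.8%. With TAC 4 as the only TAC library, which assumes that it varies like the other groups, 373 genes were higher and 344 lower. When the level of Y-linked genes entered the model, it called 282 genes higher and 188 lower of 14241. Against only the sham libraries with Arntl above Dbp, 1022 were higher and 884 lower of 14422. Without TAC 2 as well, these were 655 and 575 of 14362. Sex cannot be told apart from load for TAC 1 and 2, whereas clock phase was shared by TAC with sham 1 and 2. In none of these fits was a gene called in the opposite direction. List counts given below for these fits are to be read beside these counts over all autosomal genes, which fell as well.

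The largest rises were those of stress and fetal genes. Nppa, which encodes atrial natriuretic peptide (ENSMUSG00000041616, GRCm38 chromosome 4, 148000722 to 148002079), was at 3681, 4686 and 2042 CPM in TAC 1, 2 and 4, against 36.5, 53, 42.9, 42.7 and 51.7 CPM in sham 1 to 5. This is a log2 fold change of 6.26 ± 0.74 (adjusted p = 4.67e-05) with all 3 TAC libraries and 5.96 ± 0.79 (adjusted p = 0.000246) without TAC 2. All 3 TAC libraries lay far above all 5 sham libraries. Nppb, which encodes the B-type peptide (ENSMUSG00000029019, GRCm38 chromosome 4, 147985788 to 147987205), was at 1428, 850.0 and 541 CPM in TAC 1, 2 and 4, against 61.4, 42.8, 16, 16 and 13 CPM in sham 1 to 5, a log2 fold change of 4.98 ± 0.81 (adjusted p = 0.000403) with all 3 TAC libraries and 5.03 ± 0.89 (adjusted p = 0.00153) without TAC 2. Acta1, the skeletal form of actin (ENSMUSG00000031972, GRCm38 chromosome 8, 123891769 to 123894751), was at 5032, 9404 and 3769 CPM in TAC 1, 2 and 4, against 191, 232, 101, 96.9 and 213 CPM in sham 1 to 5. This is a log2 fold change of 5.19 ± 0.83 (adjusted p = 0.000346) with all 3 TAC libraries and 4.71 ± 0.87 (adjusted p = 0.00208) without TAC 2, and TAC 2 was the highest of the 3. Nppa is also made in the atria, and the atrial light chain Myl7 was at 1.72, 111 and 152 CPM in TAC 1, 2 and 4, against 11.5, 173, 1.38, 2.10 and 319 CPM in sham 1 to 5. Myl7 overlapped between the groups. Of 9 tested atrial genes 1 was higher, Nppa itself, and 1 lower in both fits, and the part of atrial tissue in the level of Nppa was not tested.

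**Figure D1:**
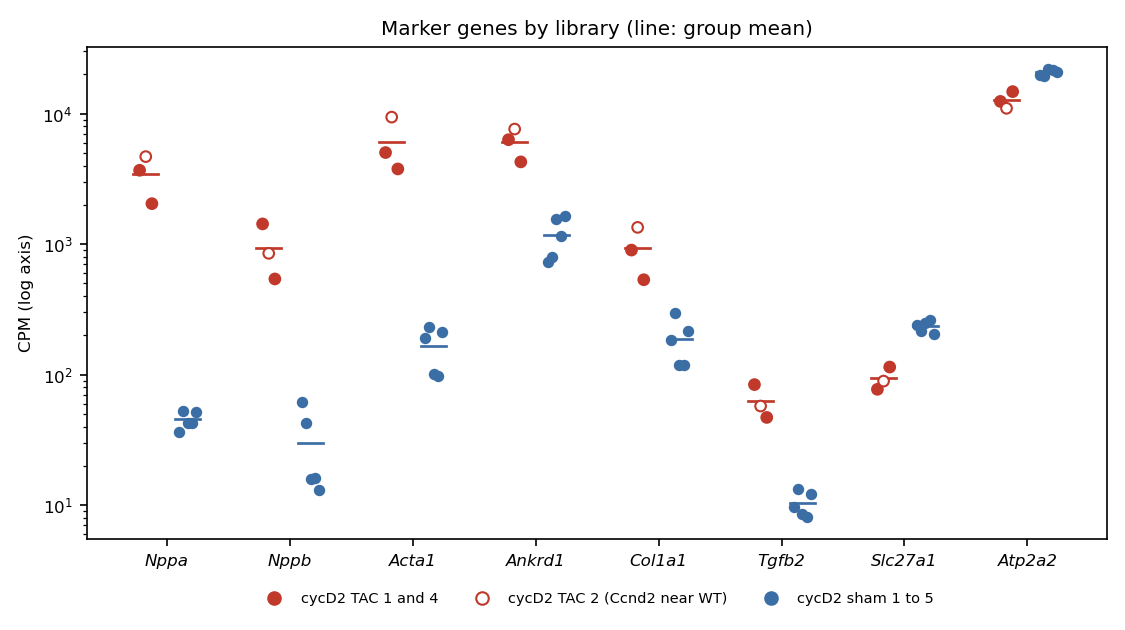
CPM on a log axis of 8 genes in each library, with TAC left (3 red points, TAC 2 open) and sham right (5 blue points) of each pair and a line at the group mean. Nppa, Nppb, Acta1, Ankrd1, Col1a1 and Tgfb2 lie higher in all TAC libraries than in any sham library, and Slc27a1 and Atp2a2 lie lower.

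From here on, a log2 fold change is given with the value without TAC 2 in square brackets after it. Of 19 tested genes of the natriuretic and fetal list, 13 were higher and 1 lower in TAC (12 and 1 without TAC 2), and their median log2 fold change was 0.81 (0.71 without TAC 2). Ankrd1, a stretch-responsive protein of the sarcomere (ENSMUSG00000024803, GRCm38 chromosome 19, 36111961 to 36120099), was at 6313, 7618 and 4268 CPM in TAC 1, 2 and 4, against 729, 794, 1558, 1154 and 1649 CPM in sham 1 to 5, a log2 fold change of 2.37 [2.15] (adjusted p = 5.09e-05 with all 3 and 0.000492 without TAC 2). Rcan1, a calcineurin inhibitor that calcineurin itself induces, was at 724, 620.1 and 413 CPM in TAC 1, 2 and 4, against 125, 131, 62.5, 63.3 and 62.3 CPM in sham 1 to 5, which is 2.72 [2.66] (adjusted p = 3.56e-05 with all 3 and 0.000245 without TAC 2). Neither gene overlapped between the groups. Ankrd2, the relative of Ankrd1 known from slow skeletal muscle, rose by 4.47 [2.1], a value that TAC 2 raised. Its level was low, at 0.519, 5.25 and 0.258 CPM in TAC 1, 2 and 4 and 0.0443 to 0.131 CPM in sham. With the Y-linked covariate Ankrd2 was at 1.52 and not called (adjusted p = 0.584). Xirp2, an actin-binding protein of the intercalated disc, and Des, the intermediate filament of muscle, rose by 1.91 [1.81] and 0.9 [0.7]. The slow myosin Myh7 rose little (0.48 [0.5]) and the adult fast myosin Myh6 fell (-0.54 [-0.39]), with 3939 to 4615 CPM in TAC and 2828 to 3269 CPM in sham for Myh7 and 19049.6 to 30292 CPM in TAC and 34023 to 41129.7 CPM in sham for Myh6. TAC 2 was the lowest library for Myh6. Against sham 1 and 2 alone Myh6 was at -0.42 and not called (adjusted p = 0.121). With the Y-linked covariate it was at -0.31 (adjusted p = 0.419). Tnnt1, the slow skeletal troponin T, was the only member of the list called lower (-0.95 [-0.64]).

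Genes of the adult sarcomere did not move as a block. Of 22 tested, 7 were higher and 5 lower (8 and 3 without TAC 2), with a median of 0.04 (0.13 without TAC 2). The higher share was 31.8%, or 36.4% without TAC 2, against 16.5% and 10.9% of all autosomal genes. The lower share was 22.7% against 14.7%, and without TAC 2 it was 13.6%, near the 10.9% of all genes. Synpo2l, a Z-disc protein, was at 1683, 549 and 1062 CPM in TAC 1, 2 and 4, against 284, 287, 325, 317 and 294 CPM in sham 1 to 5, and its log2 fold change was 1.86 ± 0.25 (adjusted p = 6.24e-05) with all 3 TAC libraries and 2.17 ± 0.19 (adjusted p = 6.86e-06) without TAC 2. TAC 2 was the lowest of the TAC libraries for it and still above the sham range. The actin crosslinker Flnc rose by 1.1 [1.19], the Z-disc adaptor Pdlim5 by 1.1 [1.11] and the thick filament protein Mybpc3 by 0.5 [0.54], whereas cardiac troponin I, Tnni3, was at -0.68 [-0.56], with 3649 to 5834 CPM in TAC and 6776 to 8397 CPM in sham. Of 19 genes of microtubules and the cortical cytoskeleton, 13 were higher and 2 lower (9 and 1 without TAC 2), with 4 higher against sham 1 and 2 alone, 1 with the Y-linked covariate and 1 with TAC 4 as the only TAC library. The beta-tubulins Tubb2b and Tubb2a rose by 1.92 [1.32] and 1.55 [1.1], the alpha-tubulin Tuba1a by 0.87 [0.78] and the actin monomer-binding Tmsb10 by 1.11 [0.95]. Ezr, which links actin to the membrane, fell (-0.62 [-0.56]). Tubb2b was highest in TAC 2, at 8.36 CPM, against 4.51 CPM in TAC 1 and 2.23 CPM in TAC 4, and the sham libraries were at 0.93 to 1.62 CPM. Reads of such closely related tubulin genes can be split between them by the counting.

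Most tested genes of the extracellular matrix lists were higher in TAC, and fewer without TAC 2. All 21 tested collagen genes were higher in TAC, 18 of them also without TAC 2, with a median log2 fold change of 1.70 (1.54 without TAC 2). Col1a1, the main chain of fibrillar collagen I (ENSMUSG00000001506, GRCm38 chromosome 11, 94936224 to 94953042), was at 900.2, 1344 and 533 CPM in TAC 1, 2 and 4, against 184, 298, 119, 118 and 217 CPM in sham 1 to 5. This is a log2 fold change of 2.31 ± 0.33 (adjusted p = 0.000117) with all 3 TAC libraries and 1.92 ± 0.33 (adjusted p = 0.00106) without TAC 2, and the lowest TAC library, TAC 4, lay above the highest sham library, sham 2. Col8a1, a short-chain network collagen, rose by 2.61 [2.31], Col15a1, a basement membrane collagen, by 1.7 [1.58] and Col4a4, a collagen IV chain, by 1.28 [1.22]. The median of the 21 genes, taken in each library against the sham mean, was 1.93, 1.97 and 1.27 in TAC 1, 2 and 4 and -0.44 to 0.51 in the sham libraries. With TAC 4 as the only TAC library 7 of the 21 were called, and with the Y-linked covariate 8, where Col1a1 was at 1.51 (adjusted p = 0.0666).

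Of 24 genes that process and crosslink collagen, 21 were higher and 1 lower, and 13 and 1 without TAC 2, with a median of 0.95 (0.55 without TAC 2). Lox, the crosslinking enzyme lysyl oxidase, was at 21.4, 56.9 and 10.9 CPM in TAC 1, 2 and 4, against 4.14, 4.11, 3.54, 3.7 and 5.00 CPM in sham 1 to 5. TAC 2 had the highest level, and the log2 fold change was 2.86 ± 0.43 (adjusted p = 0.000174) with all 3 TAC libraries and 1.96 ± 0.36 (adjusted p = 0.00116) without TAC 2. P4ha1, a prolyl hydroxylase, rose by 1.56 [1.44]. The member called lower was P3h4, a partner of the collagen lysyl hydroxylation complex, at 22, 27.1 and 26.5 CPM in TAC 1, 2 and 4, against 48.5, 45.7, 44.3, 46 and 45.1 CPM in sham 1 to 5, which is -0.87 [-0.94] (adjusted p = 3.68e-06 with all 3 and 8.87e-06 without TAC 2), with no overlap between the groups.

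Among 34 matricellular and adhesive glycoproteins 24 were higher and 1 lower (20 and 1 without TAC 2), with a median of 1.35 (1.01 without TAC 2). Tnc, which encodes tenascin C of remodelling matrix, was at 31.4, 59.9 and 9.66 CPM in TAC 1, 2 and 4, against 2.27, 4.53, 1.38, 1.23 and 1.99 CPM in sham 1 to 5, a log2 fold change of 3.86 [3.14]. Ccn2, connective tissue growth factor, was at 770.3, 660.1 and 212 CPM in TAC 1, 2 and 4, against 41.7, 66.3, 25.6, 34.9 and 74.4 CPM in sham 1 to 5, which is 3.49 [3.32] (adjusted p = 0.000271 with all 3 and 0.00165 without TAC 2). Cilp, a matrix protein that binds TGF-beta, rose by 3.71 [3.51], the fibroblast product Postn by 2.88 [2.18] and the collagen-binding Sparc by 1.57 [1.46]. None of these 5 overlapped between the groups, and TAC 4 was the lowest TAC library for each. Over the list, 20 of the 34 genes lay higher without overlap, against 14.6% of all autosomal genes. Ltbp1, a binding protein of latent TGF-beta, fell (-0.67 [-0.68]), with 52.4 to 58.8 CPM in TAC and 80.5 to 97.2 CPM in sham. Of 25 matrix proteases and their inhibitors 14 were higher and 1 lower, and 10 and 0 without TAC 2. The secreted ADAMTS-like protein Adamtsl2 rose by 2.75 [2.68], the membrane protease Mmp14 by 1.73 [1.53], the collagen-cleaving cathepsin Ctsk by 1.51 [1.31] and the gelatinase Mmp2 by 1.39 [1.19].

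Of 23 genes of TGF-beta signalling 7 were higher and 1 lower (6 and 2 without TAC 2), most of them ligands and receptors. Tgfb2, a ligand (ENSMUSG00000039239, GRCm38 chromosome 1, 186622792 to 186705989), was at 83.8, 57.4 and 47 CPM in TAC 1, 2 and 4, against 9.6, 13.4, 8.55, 8.12 and 12.1 CPM in sham 1 to 5. Its log2 fold change was 2.6 ± 0.20 (adjusted p = 1.03e-06) with all 3 TAC libraries and 2.64 ± 0.22 (adjusted p = 2.73e-06) without TAC 2, and the groups did not overlap. Tgfb3, another ligand, rose by 1.01 [0.88], and the stress-induced ligand Gdf15 by 3.37 [2.19], with 10.2, 34.9 and 4.59 CPM in TAC 1, 2 and 4, against 1.35, 1.85, 1.84, 1.46 and 1.5 CPM in sham 1 to 5. Gdf15 was thus highest in TAC 2, and all 3 TAC libraries lay above sham. The receptor Tgfbr2 rose by 0.64 [0.52] and the coreceptor Tgfbr3 fell (-0.9 [-0.92]). Of 25 integrin and focal adhesion genes 17 were higher and 1 lower (11 and 1 without TAC 2). Itga9, an alpha subunit that binds tenascin C, was at 399, 255 and 319 CPM in TAC 1, 2 and 4, against 143, 143, 129, 124 and 121 CPM in sham 1 to 5, a log2 fold change of 1.3 [1.43] (adjusted p = 3.91e-05 with all 3 and 5.56e-05 without TAC 2). The vitronectin receptor subunit Itgb3 rose by 1.54 [1.43] and the hyaluronan receptor Cd44 by 1.27 [1.46], and the focal adhesion protein Tns1 fell (-0.48 [-0.47]). Markers of the cells that make matrix moved with these lists: 8 of 11 fibroblast markers were higher (5 without TAC 2) and 0 lower, with a summed level of 3567 to 7115 CPM in TAC and 2420 to 3756 CPM in sham. Of 11 myofibroblast markers 8 were higher (7 without TAC 2), with 1246 to 2285 CPM in TAC and 466 to 1165 CPM in sham. With the Y-linked covariate, 282 of all 14241 autosomal genes were higher. Among them were 2 of 34 glycoproteins, 4 of 24 collagen processing genes and 4 of 25 proteases and inhibitors. They also held 1 of 23 TGF-beta genes and 1 of 25 integrin genes. With TAC 4 as the only TAC library the numbers were 3, 5, 4, 1 and 4, and against sham 1 and 2 alone 18, 12, 6, 6 and 9. Several of these cell type markers are matrix genes themselves, their part in the result was not tested, and in bulk tissue more cells of a type cannot be told apart from more RNA per cell.

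**Figure D2:**
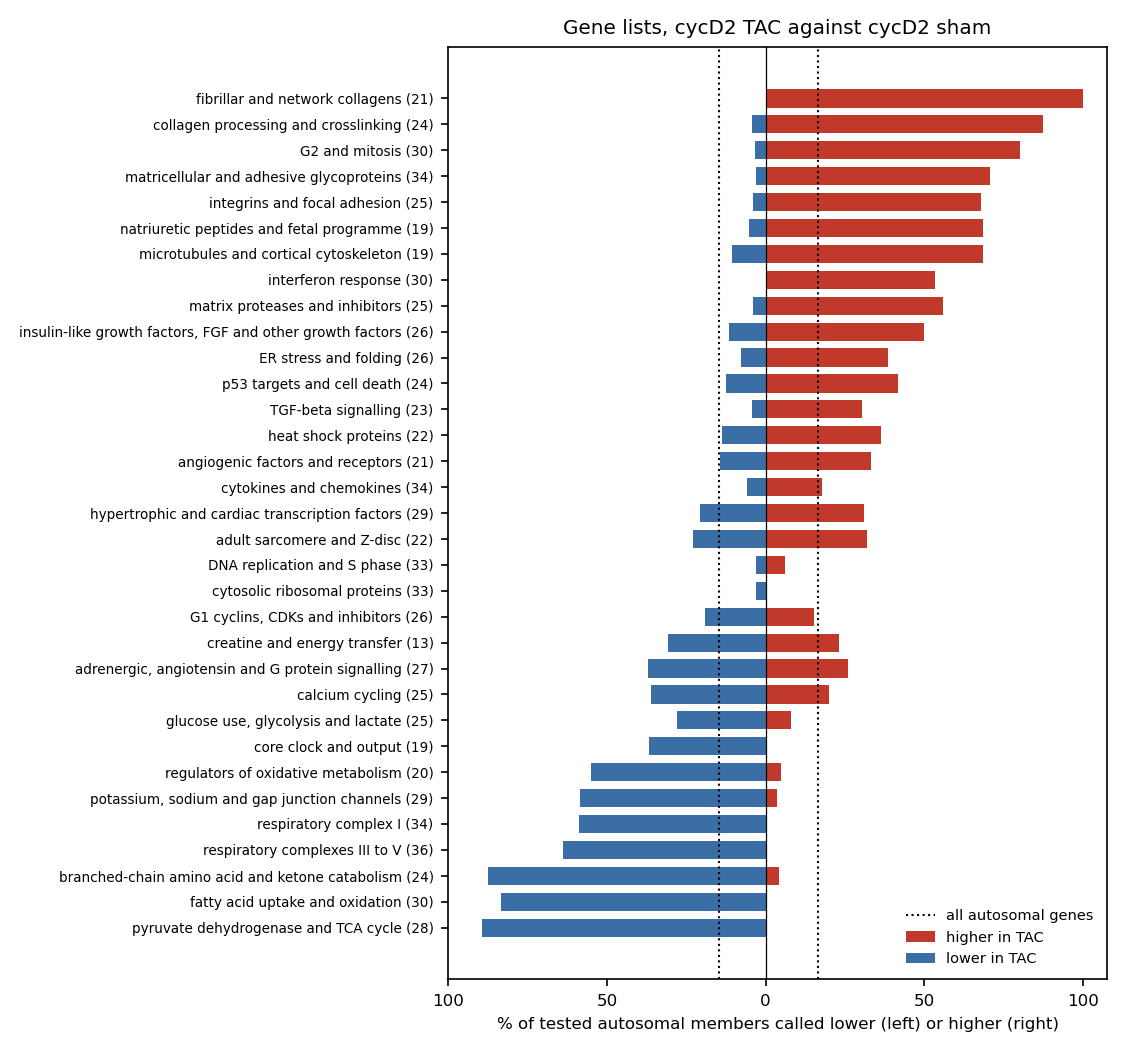
Share of the tested autosomal members of 33 gene lists called higher (red, right) or lower (blue, left) in TAC than in sham with all 3 TAC libraries, with the number tested in brackets. Dotted lines mark the shares over all autosomal genes, 16.5% higher and 14.7% lower, and the collagens (21 of 21 higher) and the TCA cycle list (25 of 28 lower) stand at the ends.

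Among growth factors, receptors and transcription factors some genes were higher and others lower. Of 26 growth factor genes 13 were higher and 3 lower (12 and 4 without TAC 2). The lower share, 11.5%, was near the 14.7% of all autosomal genes, and without TAC 2 it was 15.4% against 10.9%. Igf1, insulin-like growth factor 1, was at 52.3, 48.6 and 27.3 CPM in TAC 1, 2 and 4, against 12.4, 17.8, 12.6, 10.4 and 15.5 CPM in sham 1 to 5, a log2 fold change of 1.63 [1.52] (adjusted p = 3.85e-05 with all 3 and 0.000302 without TAC 2). The EGF receptor ligand Hbegf rose by 1.4 [1.45], and Fgf6, known from skeletal muscle, by 3.4 [3.12] at a low level, with 0.687 to 3.03 CPM in TAC and 0.0436 to 0.322 CPM in sham. Erbb4, the neuregulin receptor of heart muscle cells, and the fibroblast growth factor Fgf9 fell (-1.14 [-1.02] and -0.86 [-0.78]). Of 21 angiogenic genes 7 were higher and 3 lower (4 and 2 without TAC 2), and 4 were also higher without sham 4 or sham 5. Their lower share, 14.3%, was near that of all autosomal genes. Angpt1, the ligand that stabilises vessels through Tie2, was at 10.4, 14.1 and 15.4 CPM in TAC 1, 2 and 4, against 67.6, 55.5, 48.4, 62.6 and 48.9 CPM in sham 1 to 5. Its log2 fold change was -2.09 ± 0.31 (adjusted p = 0.000167) with all 3 TAC libraries and -2.15 ± 0.39 (adjusted p = 0.00153) without TAC 2, with no overlap. Of 27 genes of adrenergic, angiotensin and G protein signalling 7 were higher and 10 lower (4 and 8 without TAC 2). The higher share was 25.9%, or 14.8% without TAC 2, against 16.5% and 10.9% of all autosomal genes. The lower share was 37%, or 29.6% without TAC 2, against 14.7% and 10.9%. The adrenergic receptor Adra1a fell (-1.79 [-2.41]), more without TAC 2, and so did the angiotensin receptor Agtr1a (-0.99 [-0.81]), the G protein regulator Rgs2 (-1.15 [-0.94]) and Corin, the protease that cuts the atrial natriuretic peptide precursor (-1.08 [-0.93]). Corin was at 94.1, 71.9 and 119.9 CPM in TAC 1, 2 and 4, against 210.5, 189.9, 184, 244 and 181 CPM in sham 1 to 5, while its substrate's gene Nppa was higher in the same libraries. The endothelin gene Edn3 rose by 2.76 [3.12], with 19.6, 6.35 and 20.6 CPM in TAC 1, 2 and 4, against 3.45, 2.45, 1.84, 1.6 and 2.04 CPM in sham 1 to 5.

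Of 29 hypertrophic and cardiac transcription factors 9 were higher and 6 lower, and 5 and 3 without TAC 2. These are 31.0% higher and 20.7% lower, and 17.2% and 10.3% without TAC 2, where the shares over all autosomal genes were 10.9% each, so that the lower share was near that of all genes. The homeobox gene Meox1 was at 62.8, 74.1 and 26.1 CPM in TAC 1, 2 and 4, against 8.81, 15.8, 8.78, 10.7 and 10.9 CPM in sham 1 to 5, a log2 fold change of 2.3 [2.00] (adjusted p = 0.000206 with all 3 and 0.00211 without TAC 2). Scx, a regulator of tendon and collagen genes, rose by 1.72 [1.55]. Tbx5 and Mef2a, factors of heart muscle cells, fell (-0.9 [-0.78] and -0.63 [-0.57]), with 22.8 to 36 CPM in TAC and 44.3 to 61 CPM in sham for Tbx5. The number of lower members was 3 without sham 4 and 3 without sham 5. With the Y-linked covariate 4 growth factor genes, 0 angiogenic genes, 1 gene of adrenergic and G protein signalling and 1 transcription factor were higher.

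Most tested genes of fatty acid use, the TCA cycle, the respiratory chain and branched-chain amino acid breakdown were lower with all 3 TAC libraries, and fatty acid genes had the most negative median of these lists. Of 30 genes of fatty acid uptake and oxidation 0 were higher and 25 lower (24 without TAC 2), with a median of -0.66 in both fits. Slc27a1, a fatty acid transporter of the cell membrane (ENSMUSG00000031808, GRCm38 chromosome 8, 71568882 to 71587302), was at 77.1, 89.2 and 114 CPM in TAC 1, 2 and 4, against 239, 215, 249.8, 261 and 205 CPM in sham 1 to 5. This is a log2 fold change of -1.32 ± 0.12 (adjusted p = 3.68e-06) with all 3 TAC libraries and -1.31 ± 0.15 (adjusted p = 2.96e-05) without TAC 2, and TAC 4 was nearest to sham without reaching it. Acaa2, the thiolase of the last step of mitochondrial beta-oxidation, was at 349, 391 and 627 CPM in TAC 1, 2 and 4, against 1128, 1025, 1010.4, 1155 and 984 CPM in sham 1 to 5, a log2 fold change of -1.22 [-1.14]. Decr1, needed for unsaturated fatty acids, and Hadh, a dehydrogenase of the cycle, were at -0.96 [-0.96] and -0.85 [-0.84]. Ucp3, the uncoupling protein of muscle mitochondria, had the lowest value of the list (-2.09 [-2.6]). The median of the list in each library against the sham mean was -0.88, -0.74 and -0.43 in TAC 1, 2 and 4 and -0.08 to 0.09 in sham. With TAC 4 as the only TAC library 15 of the 30 were called lower, and with the Y-linked covariate 12.

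The pyruvate dehydrogenase and TCA cycle list held 25 lower and 0 higher genes of 28 (23 without TAC 2), with a median of -0.43 (-0.38 without TAC 2). Sdha, the catalytic subunit shared by the cycle and complex II, was at 1512, 1247 and 1808 CPM in TAC 1, 2 and 4, against 2406, 2262, 2567, 2625 and 2485 CPM in sham 1 to 5. Its log2 fold change was -0.7 [-0.59] (adjusted p = 5.46e-05 with all 3 and 0.000248 without TAC 2). Citrate synthase, Cs, was at -0.5 [-0.45], with 1275 to 1635 CPM in TAC and 1962 to 2072 CPM in sham. The isocitrate dehydrogenase subunit Idh3a and the succinyl-CoA ligase subunit Suclg1 were at -0.58 [-0.55] and -0.68 [-0.64]. In this list 4 were lower with the Y-linked covariate and 7 with TAC 4 as the only TAC library. In the respiratory chain 20 of 34 complex I genes were lower and 0 higher, and 11 without TAC 2 or 10 without TAC 1. For complexes III to V it was 23 of 36, 15 without TAC 2 and 16 without TAC 1. The complex I subunits Ndufv1 and Ndufs1 were at -0.52 [-0.41] and -0.47 [-0.38], and the ATP synthase subunits Atp5b and Atp5a1 at -0.59 [-0.5] and -0.52 [-0.46]. These changes were small and uneven across the TAC libraries: the median of the complex I genes was -0.48, -0.42 and -0.06 in TAC 1, 2 and 4 and -0.09 to 0.18 in sham. TAC 4 thus lay within the sham range, and with it as the only TAC library 0 genes of complex I and 0 of complexes III to V were called, as with the Y-linked covariate, and against sham 1 and 2 alone 7 and 14 were lower. The summed level of heart muscle cell markers given above was lower in TAC 1 and 2 than in any sham library, and its part in these changes was not tested.

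Of 24 genes that break down branched-chain amino acids and ketone bodies 21 were lower and 1 higher (19 and 1 without TAC 2), with a median of -0.52 (-0.50 without TAC 2). Against sham 1 and 2 alone 14 were lower, with TAC 4 as the only TAC library 6 and with the Y-linked covariate 4. Ppm1k, the phosphatase that activates branched-chain ketoacid dehydrogenase, was at 72, 61.2 and 94.2 CPM in TAC 1, 2 and 4, against 170.4, 167, 186, 178 and 182 CPM in sham 1 to 5, a log2 fold change of -1.22 [-1.1] (adjusted p = 0.000117 with all 3 and 0.00116 without TAC 2). Bckdhb, a subunit of that enzyme, and Mccc2, of leucine breakdown, were at -0.76 [-0.71] and -0.84 [-0.8]. The gene called higher was Bdh1, the mitochondrial enzyme that interconverts the ketone bodies beta-hydroxybutyrate and acetoacetate (ENSMUSG00000046598, GRCm38 chromosome 16, 31422280 to 31458901). It was at 189, 391 and 107 CPM in TAC 1, 2 and 4, against 23.2, 18.7, 32.4, 48.9 and 33.3 CPM in sham 1 to 5. The log2 fold change of Bdh1 was 2.87 ± 0.45 (adjusted p = 0.000298) with all 3 TAC libraries and 2.22 ± 0.45 (adjusted p = 0.00328) without TAC 2, with TAC 2 highest and no overlap between the groups. In WT, Bdh1 was at 362 to 402 CPM. TAC 2, whose Ccnd2 was near the WT level, lay within that range, and TAC 1 and 4 lay below it.

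**Figure D3:**
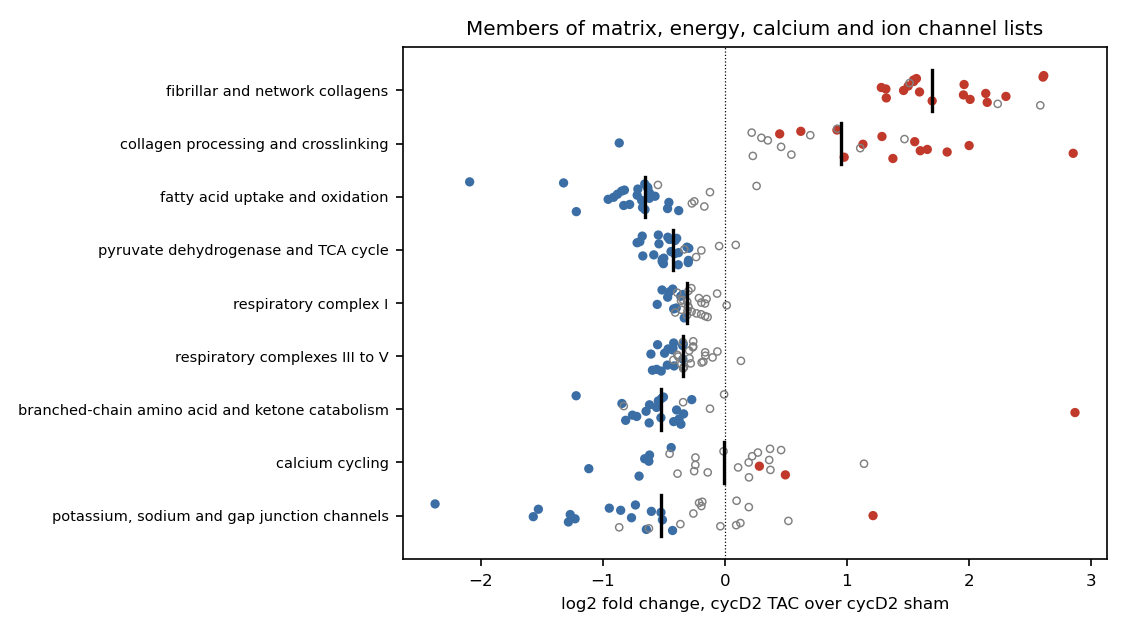
Log2 fold change, TAC over sham with all 3 TAC libraries, of each tested autosomal member of 9 gene lists. Filled points were called in the same direction with and without TAC 2, open points were not, and the black bar is the list's median, from 1.70 for the collagens to -0.66 for fatty acid genes.

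Regulators of oxidative metabolism were lower in 11 of 20 and higher in 1, and lower in 6 and higher in 0 without TAC 2. Against sham 1 and 2 alone 5 were lower, and with the Y-linked covariate or TAC 4 as the only TAC library 0. Ppara and Rxrg, nuclear receptors that pair to drive fatty acid genes, were at -0.69 [-0.67] and -0.67 [-0.75], and Ppara was at 28.5, 24.9 and 25.9 CPM in TAC 1, 2 and 4, against 38, 42.3, 41.2, 40.2 and 52.1 CPM in sham 1 to 5. Of 25 glucose genes 2 were higher and 7 lower (1 and 7 without TAC 2), with a median of 0.01 (-0.04 without TAC 2). The higher share was 8%, or 4% without TAC 2, below the 16.5% and 10.9% of all autosomal genes. The lower share was 28% in both fits, against 14.7% and 10.9%. The insulin-responsive glucose transporter Slc2a4 was at -0.75 [-0.81], with 382 to 456 CPM in TAC and 567 to 839 CPM in sham. Of the phosphofructokinases, which catalyse the committed step of glycolysis, the platelet form Pfkp rose by 1.29 [1.3] and the muscle form Pfkm fell (-0.48 [-0.42]), as did the muscle enolase Eno3 (-0.69 [-0.61]). Pfkp was at 201, 162 and 141 CPM in TAC 1, 2 and 4, against 79.4, 83.9, 60.4, 59.98 and 59.6 CPM in sham 1 to 5. Among 13 genes of creatine and energy transfer 3 were higher and 4 lower (2 and 4 without TAC 2). These shares were 23.1% and 30.8%, or 15.4% and 30.8% without TAC 2. In this list, genes of different routes to NAD changed in opposite directions. Nmrk2, the muscle nicotinamide riboside kinase, was at 168, 158 and 42.2 CPM in TAC 1, 2 and 4, against 21.2, 17.4, 5.01, 4.84 and 4.6 CPM in sham 1 to 5. Its log2 fold change was 3.53 ± 0.66 (adjusted p = 0.00108) with all 3 TAC libraries and 3.29 ± 0.72 (adjusted p = 0.00598) without TAC 2. Nmrk2 was higher in sham 1 and 2, where Arntl was above Dbp, than in sham 3 to 5. Against sham 1 and 2 alone and without TAC 2 it was at 2.44 and not called (adjusted p = 0.111). With the Y-linked covariate it was at 2.01 (adjusted p = 0.224). Nampt, the enzyme of the nicotinamide route, was at 163, 149 and 164 CPM in TAC 1, 2 and 4, against 244, 218, 448, 442 and 465 CPM in sham 1 to 5, a log2 fold change of -1.2 [-1.17] (adjusted p = 0.00179 with all 3 and 0.0135 without TAC 2). Nampt was lower in sham 1 and 2, where Arntl was above Dbp, than in sham 3 to 5. Against sham 1 and 2 alone it was at -0.54 and not called (adjusted p = 0.0845). Without TAC 2 as well it was at -0.50 (adjusted p = 0.202). The muscle creatine kinase Ckm fell (-0.44 [-0.52]) and the brain form Ckb rose (0.73 [0.49]).

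Calcium cycling and ion channel genes were lower in part. Atp2a2, the pump that returns calcium to the sarcoplasmic reticulum (ENSMUSG00000029467, GRCm38 chromosome 5, 122453513 to 122502225), was at 12411, 10988 and 14750.3 CPM in TAC 1, 2 and 4, against 19907, 19375, 21841, 21438 and 20994 CPM in sham 1 to 5. Its log2 fold change was -0.7 ± 0.10 (adjusted p = 6.15e-05) with all 3 TAC libraries and -0.63 ± 0.10 (adjusted p = 0.000425) without TAC 2, without overlap. Pln, the inhibitor of this pump, was at -0.62 [-0.57]. Hrc and Trdn, calcium-binding and anchoring proteins of the reticulum, were at -0.66 [-0.57] and -0.44 [-0.36], and the kinase Camk2a at -1.12 [-1.22]. In the list of 25 genes 9 were lower and 5 higher (6 and 5 without TAC 2). The share higher was 20% in both fits, against 16.5% of all autosomal genes, or 10.9% without TAC 2. Only 2 of the higher genes were the same in both fits, and with the clock covariate 8 were lower and 0 higher. With the Y-linked covariate 1 was lower, and with TAC 4 as the only TAC library 5. The median was -0.01 (-0.10 without TAC 2).

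Of 29 potassium, sodium and gap junction channel genes 17 were lower and 1 higher in each fit, 15 and 1 of them in both, with a median of -0.52 (-0.56 without TAC 2). With TAC 4 as the only TAC library 7 were lower, and with the Y-linked covariate 5. Kcnv2, a modifying subunit of voltage-gated potassium channels, was at 3.55, 2.56 and 7.13 CPM in TAC 1, 2 and 4, against 24.9, 19.4, 22.6, 27.8 and 19.6 CPM in sham 1 to 5, a log2 fold change of -2.38 [-2.12] (adjusted p = 3.68e-05 with all 3 and 0.00026 without TAC 2). Kcnj3, a subunit of the acetylcholine-activated channel, was at 32.8, 36 and 45.1 CPM in TAC 1, 2 and 4, against 104, 89.6, 119, 117 and 118 CPM in sham 1 to 5, which is -1.53 [-1.51]. The repolarising channels Kcnh2, Kcnd2 and Kcnq1 were at -1.27 [-1.17], -1.23 [-1.22] and -0.73 [-0.64], and none of the 5 overlapped between the groups. Over the list, 16 of the 29 genes lay lower without overlap, against 13.6% of all autosomal genes. Kcne4, an inhibitory subunit, was the channel gene called higher (1.22 [0.96]).

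Cell cycle genes differed between the TAC libraries. Of 30 genes of G2 and mitosis 24 were higher and 1 lower, and 25 and 0 without TAC 2, with a median of 1.24 (1.46 without TAC 2). Without TAC 1 it was 8 higher and 1 lower, against sham 1 and 2 alone 9 and 0, with TAC 4 as the only TAC library 2 and 0, and with the Y-linked covariate 0 and 0. The mitotic kinase Plk1 was at 4.35, 3.12 and 3.44 CPM in TAC 1, 2 and 4, against 0.916, 0.641, 1.15, 1.28 and 1.42 CPM in sham 1 to 5, a log2 fold change of 1.75 [1.84] (adjusted p = 0.00198 with all 3 and 0.00526 without TAC 2). The spindle checkpoint kinase Ttk and the spindle motor Kif11 rose by 1.74 [1.86] and 1.56 [1.68]. Tpx2, a spindle assembly factor, was at 17.5, 7.53 and 10.9 CPM in TAC 1, 2 and 4, against 4.62, 3.55, 4.87, 4.47 and 4.6 CPM in sham 1 to 5, which is 1.44 [1.67]. Mki67, the proliferation marker Ki-67, was at 30.1, 17.5 and 17.8 CPM in TAC 1, 2 and 4, against 8.94, 8.67, 14.7, 10.8 and 8.54 CPM in sham 1 to 5, a log2 fold change of 1.08 [1.2] (adjusted p = 0.0264 with all 3 and 0.0446 without TAC 2). Its adjusted p was 0.160 without TAC 1 and 0.0549, 0.0538 and 0.0548 without sham 1, 2 and 5. Cenpf, a kinetochore protein, was lower with all 3 TAC libraries (-1.23 [-1.01], adjusted p = 0.0166 with all 3 and 0.0941 without TAC 2).

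Genes of DNA replication and S phase behaved otherwise. Of 33 tested, 2 were higher and 1 lower, but 9 and 1 without TAC 2, and the median was 0.05 with all 3 and 0.35 without TAC 2. Mcm2, a subunit of the replicative helicase, was at 80.1, 8.32 and 76.9 CPM in TAC 1, 2 and 4, against 51, 47.9, 45.7, 43.2 and 48.2 CPM in sham 1 to 5. TAC 1 and 4 lay above and TAC 2 far below the sham range, and the log2 fold change was 0.22 ± 0.42 (adjusted p = 0.727) with all 3 TAC libraries and 0.72 ± 0.12 (adjusted p = 0.000519) without TAC 2. Without TAC 1 or TAC 4 it was -0.15 and -0.10. Rrm2, the inducible subunit of ribonucleotide reductase, was at 27, 4.89 and 18 CPM in TAC 1, 2 and 4, against 7.07, 5.05, 10.5, 9.27 and 8.23 CPM in sham 1 to 5, a log2 fold change of 1.05 [1.47] (adjusted p = 0.0858 with all 3 and 0.0139 without TAC 2). The list's median in each library against the sham mean was 0.50, -0.66 and 0.26 in TAC 1, 2 and 4 and -0.16 to 0.10 in sham. TAC 2 thus lay below sham and inside the range of the 5 WT libraries, which was -0.89 to -0.54. For G2 and mitosis the medians were 1.74, 0.69 and 1.15 in TAC 1, 2 and 4, -0.33 to 0.33 in sham and -0.88 to -0.49 in WT, so that TAC 2 lay above both there. Mcm10, a replication initiation factor, was higher with and without TAC 2 (1.45 [1.76]), but not without TAC 1 (adjusted p = 0.123), and the DNA repair glycosylase Ung was lower in both fits (-0.6 [-0.5]).

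**Figure D4:**
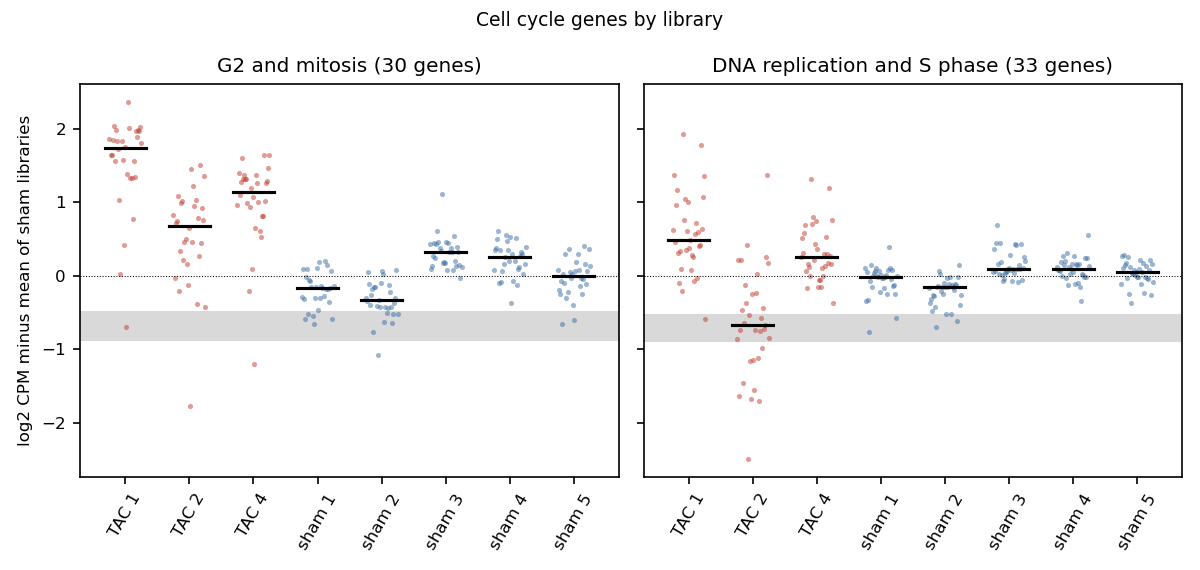
Log2 CPM minus the mean of the 5 sham libraries for 30 G2 and mitosis genes (left) and 33 DNA replication and S phase genes (right), one point per gene, in each TAC (red) and sham (blue) library. Black bars are medians and the grey band spans the medians of the 5 WT libraries: TAC 2 lies at 0.69 on the left and at -0.66, inside the band, on the right.

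Of 26 G1 cyclins, CDKs and inhibitors 4 were higher and 5 lower (3 and 3 without TAC 2), and 1 and 2 without TAC 1. These shares, 15.4% higher and 19.2% lower, or 11.5% each without TAC 2, were near those of all autosomal genes. The S phase activator E2f1 was at 15.7, 3.55 and 12.7 CPM in TAC 1, 2 and 4, against 4.62, 4.34, 5.24, 4.52 and 5.05 CPM in sham 1 to 5, a log2 fold change of 1.16 [1.56] (adjusted p = 0.0287 with all 3 and 0.00226 without TAC 2). TAC 2 was below the sham libraries and TAC 1 and 4 above them, and the call was lost without TAC 1, TAC 4, sham 1, sham 2 or sham 4, at adjusted p = 0.0514 to 0.196. E2f3 rose by 0.67 [0.72], and the CDK4 and CDK6 inhibitor Cdkn2c was at -0.57 [-0.28], with 29.6, 13.1 and 32.6 CPM in TAC 1, 2 and 4, against 37.8, 36.1, 36.1, 41 and 35.3 CPM in sham 1 to 5. Of 24 p53 targets and cell death genes 10 were higher and 3 lower, 9 and 0 without TAC 2, 5 and 1 without TAC 1, and 2 and 0 with the Y-linked covariate. The share lower with all 3 TAC libraries, 12.5%, was near the 14.7% of all autosomal genes. The TWEAK receptor Tnfrsf12a was at 305, 148 and 209 CPM in TAC 1, 2 and 4, against 54.4, 54.8, 29.4, 36.2 and 31 CPM in sham 1 to 5, a log2 fold change of 2.42 [2.62] (adjusted p = 0.000505 with all 3 and 0.00111 without TAC 2). Phlda3 and Bbc3, targets of p53, rose by 1.24 [1.23] and 1.18 [1.17], and the survival gene Bcl2 by 1.04 [0.76]. Cdkn1a, the p53-induced CDK inhibitor p21, was at 152, 89.1 and 106 CPM in TAC 1, 2 and 4, against 62.6, 64.7, 18.9, 21.5 and 26.4 CPM in sham 1 to 5 and did not pass (adjusted p = 0.0528 with all 3 and 0.0825 without TAC 2), while it did without sham 1 or sham 2 (adjusted p = 0.0406 and 0.0365).

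Chaperones and interferon genes rose in part. Of 22 heat shock proteins 8 were higher and 3 lower (6 and 2 without TAC 2, 5 and 2 without TAC 1). The share lower, 13.6%, was near the 14.7% of all autosomal genes. Hspb1, a small heat shock protein, was at 129.8, 142 and 138 CPM in TAC 1, 2 and 4, against 62.8, 70.04, 33.7, 53.6 and 45.4 CPM in sham 1 to 5, a log2 fold change of 1.36 [1.32]. The cytosolic chaperone Hsp90aa1 rose by 1.01 [1.07] and the mitochondrial chaperonin Hspd1 was at -0.37 [-0.31]. Of 26 genes of ER stress and folding 10 were higher and 2 lower (7 and 2 without TAC 2). The higher share was 38.5%, or 26.9% without TAC 2, against 16.5% and 10.9% of all autosomal genes. The lower share, 7.69% in both fits, was below their 14.7% and 10.9%. Of 30 interferon response genes 16 were higher and 0 lower, and 9 and 0 without TAC 2, with a median of 0.60 (0.52 without TAC 2). The antiviral Oas1a and the ubiquitin-like Isg15 rose by 1.12 [1.06] and 1.08 [1.06] at low levels, with 6.44 to 7.15 CPM in TAC and 2.44 to 3.81 CPM in sham for Isg15. Of 34 cytokines and chemokines 6 were higher and 2 lower (3 and 2 without TAC 2). The share higher, 17.6%, was near the 16.5% of all autosomal genes, and the share lower, 5.88%, was below their 14.7%. Of 33 cytosolic ribosomal proteins 0 were higher and 1 lower (0 and 0 without TAC 2). With the Y-linked covariate 2 heat shock proteins, 2 genes of ER stress and 1 interferon response gene were higher, and the same counts were found with TAC 4 as the only TAC library.

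Markers of other cell types were counted as well. Of 14 endothelial markers 6 were higher (2 without TAC 2) and 0 lower, with a summed level of 1992 to 2212 CPM in TAC and 1540 to 1937 CPM in sham. Of 12 macrophage markers 1 was higher and 1 lower in both fits, and their summed levels overlapped, at 300 to 494 CPM in TAC and 268 to 398 CPM in sham. Each of these macrophage shares, 8.33%, was below that of all autosomal genes. The red blood cell markers summed to 16.8 to 36.3 CPM in TAC and 40.6 to 434 CPM in sham, with sham 3 to 5 highest. None of 7 tested adipocyte markers was called. Of 19 clock genes 7 were lower (2 without TAC 2, and 3 without sham 3, 4 or 5). Hlf, a clock output factor, was at 12.2, 14.2 and 13.8 CPM in TAC 1, 2 and 4, against 22.2, 22.4, 105, 100.4 and 108 CPM in sham 1 to 5. Sham 1 and 2, with Arntl above Dbp, were nearer to TAC than the other sham libraries. Hlf was at -2.42 [-2.48], and the clock repressor Nr1d2 at -2.05 [-1.93]. Against sham 1 and 2 alone, Hlf was at -0.74 (adjusted p = 0.399), Nr1d2 was at -0.87 (adjusted p = 0.232) and 0 of the 19 clock genes were called. With the replicate number as a block, Hlf was at -1.78.

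Other genes with large changes were also named by size. Serpinb1c, a member of the serpin family, was at 28.8, 25 and 16 CPM in TAC 1, 2 and 4, against 1.09, 1.81, 0.828, 0.913 and 2.17 CPM in sham 1 to 5, a log2 fold change of 4.08 ± 0.50 (adjusted p = 3.78e-05) with all 3 TAC libraries and 4.01 ± 0.55 (adjusted p = 0.000217) without TAC 2. The glycosyltransferase gene Mgat5b, the T-box gene Tbx15 and Dct, a melanin synthesis enzyme, rose by 3.27 [3.55], 3.01 [3.34] and 2.92 [3.11]. TAC 2 had the lowest TAC level of these 3 genes. Among the falls, Ccl11, the eosinophil attractant eotaxin, was at 1.36, 1.18 and 1.46 CPM in TAC 1, 2 and 4, against 8.59, 10.7, 13.7, 14.5 and 17 CPM in sham 1 to 5. The log2 fold change was -3.27 ± 0.32 (adjusted p = 5.08e-06) with all 3 TAC libraries and -3.2 ± 0.39 (adjusted p = 6.41e-05) without TAC 2. Ccl11 is 1 of the 2 lower chemokine list members counted above. Fbp2, the muscle fructose bisphosphatase of gluconeogenesis, was at 1.8, 3.55 and 3.22 CPM in TAC 1, 2 and 4, against 19.8, 20.4, 12.9, 17.8 and 14 CPM in sham 1 to 5, a log2 fold change of -2.57 [-2.78] (adjusted p = 1.03e-06 with all 3 and 2.73e-06 without TAC 2). Penk, the enkephalin precursor, was at 0.439, 1.85 and 4.47 CPM in TAC 1, 2 and 4, against 9.03, 11.1, 13.9, 17.3 and 18 CPM in sham 1 to 5, which is -2.63 [-2.53] and -3.58 without TAC 4. The Wnt inhibitor Sfrp5 was at -2.67 [-2.57] and -3.53 without TAC 4. The chloride channel Clcn1, the receptor phosphatase Ptprt, the lipid transporter Abca12 and the small G protein Rasd2 were at -2.54 [-2.35], -2.4 [-1.95], -2.36 [-2.12] and -2.24 [-2.23]. All 4 were lower in each TAC library than in any sham library, which was a condition for genes named by size. Rasd2 was at 5.84 and 8.15 CPM in sham 1 and 2 and 15.9 to 21.1 CPM in sham 3 to 5. Against sham 1 and 2 alone Rasd2 was at -1.25 (adjusted p = 0.0982), and without TAC 2 as well at -1.24 (adjusted p = 0.218). Ptprt was at 6.63, 1.38 and 8.63 CPM in TAC 1, 2 and 4. In WT it was at 0.981 to 2.36 CPM, a range that held TAC 2. Most named genes were chosen from those called with and without TAC 2. Among the named genes, leaving out TAC 2 moved most values little. It lowered those of Lox, Gdf15, Tnc, Postn, Bdh1, Tubb2b and Ankrd2 and made that of Adra1a more negative.

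**Figure D5:**
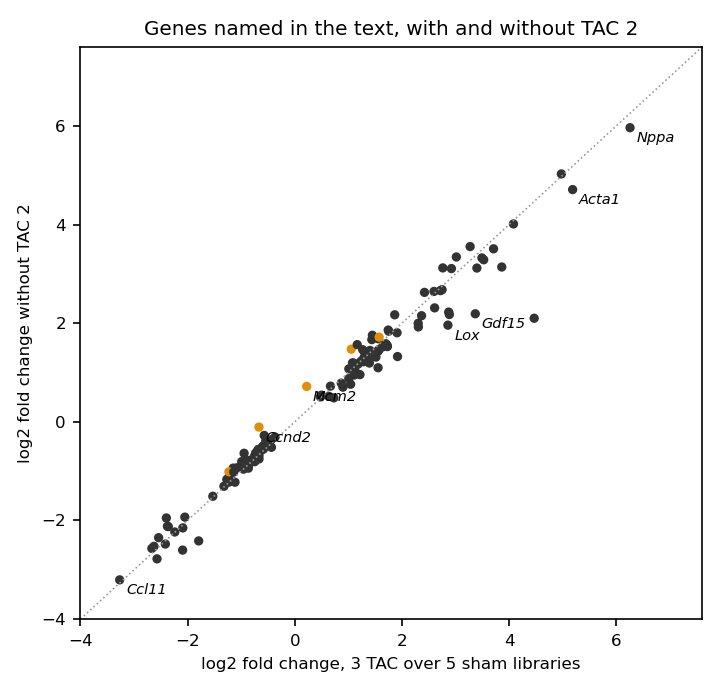
Log2 fold change of the genes named in the text, TAC over sham, with all 3 TAC libraries (x axis) and without TAC 2 (y axis), with a dotted line of equal values. Orange points (Mcm2, Ccnd2, Rrm2, Cdkn1a and Cenpf) were not called in both fits, and Gdf15 (3.37 and 2.19) and Lox (2.86 and 1.96) lie below the line.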

How the data were processed

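RNA of left ventricular myocardium was extracted with a fibrous tissue kit and made into TruSeq v2 libraries, which do not keep the strand, per the labels' protocols. The authors deposited raw counts per Ensembl gene for each library, not normalized. Per the submitters' processing notes, the tools included HTSeq 0.6.1p1 and STAR 2.3.0e, beside CASAVA 1.8.2, SAMtools 0.1.19, FastQC and DESeq2 1.8, with the builds GRCm38 and mm10, while the annotation release and strand setting are not given in the sources used here. GENCODE M21 supplied names and positions for 36602 of 38355 identifiers. Without strand, reads of overlapping antisense genes cannot be told apart.

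Genes were kept with filterByExpr (minimum count 10), scaled by TMM and fitted in edgeR 4.0.16 (R 4.3.3) with a robust quasi-likelihood model of 1 mean per group over all 18 libraries (biological coefficient of variation 0.160). Benjamini-Hochberg adjustment ran over the 14876 genes tested, or 15033 without TAC 2, and the threshold was 0.05. Each SE was taken as the absolute log2 fold change divided by the root of its F value. Levels per library in the lists use log2 CPM with a prior count of 2. The summary lines of each table, such as reads with no feature, were left out of the totals. No 2 libraries of a group agreed within counting error.

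The members and gene lists were chosen with earlier results of these data known. The text names the 5 markers, a panel of load genes and Ccnd2. It also names genes among the 15 largest rises and falls that passed with and without TAC 2 without overlap. Members of each list were named by smallest p among those called with and without TAC 2. Mcm2, Rrm2, Cdkn1a, Cenpf, Ankrd2, Myl7 and members that moved against their list were chosen after their values were seen. One gene that the rule would name is not reported here.

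Residuals of TAC and sham libraries with the same replicate number correlated at 0.129, 0.151 and 0.157 for replicates 1, 2 and 4, above a limit of 0.1. The fit behind the reported p-values nevertheless held no replicate block and was not paired. The labels give no shared litter or day, and only TAC 4 was most like the sham library of its number. TAC 1 was most like sham 3 (0.145) and TAC 2 most like sham 5 (0.270). Other settings tried were DESeq2 1.42.0, RLE scaling, no filter and a strict one (at least 1 CPM in at least 3 libraries), the replicate block, TAC and sham fitted alone, clock and Y-linked covariates, a test against 1.5-fold and leaving out each library. In simulated data of the size of 3 TAC with 5 sham libraries (14712 genes), 42% of genes changed 1.5-fold, 74% of those changed 2-fold and 90% of those changed 4-fold were called, with 10 false calls. The simulated libraries differed only by chance and by the changed genes. They held no differences in sex, clock phase or Ccnd2, so these figures do not cover the differences among the libraries here. For genes near 1 CPM counting error makes up part of the spread.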

Additional observations from a re-analysis of the deposited data

Results flagged for a closer look

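In sham 2, Cd44 was at 27.4 CPM, where the nearest other sham library was at 17.2 CPM, and Scx was at 8.83 CPM, where the nearest was at 5.80 CPM. Both stood apart from the other 4 sham libraries by Dixon's criterion for 5 samples. In all, 138 genes were checked in sham and 2 stood apart, and chance alone marks about 1 in 20. All TAC libraries lay above sham 2 for both genes.

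Xist, which lies on the X chromosome and in no comparison here, had 3659 counts in TAC 1 and 2644 counts in TAC 2, against 4 counts in TAC 4 and at most 11 counts in any sham library. The part of this difference in the changes of autosomal genes was not tested beyond the covariate and the fit with TAC 4 alone.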

How the results depend on the processing

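The number of autosomal genes higher in TAC, 2351 in the report's fit, was 1567 to 2496 when any 1 library was left out, and the number lower, 2088, was 1562 to 2234. Counts moved by more than 1.5 times to 1223 higher and 1093 lower with a clock covariate and no TAC 2, 1022 and 884 against sham libraries with Arntl above Dbp only, 655 and 575 with that choice and no TAC 2, 282 and 188 with the Y-linked covariate, 398 and 179 in a test against 1.5-fold, 1282 and 1057 with TAC and sham fitted alone and no TAC 2, and 373 and 344 with TAC 4 as the only TAC library. The number higher was also 1395 with the replicate block and no TAC 2. The fits restricted to sham phase and no TAC 2, to TAC and sham alone and no TAC 2, to the block and no TAC 2 and to TAC 4 were chosen after seeing the data. The replicate block alone gave 2147 higher and 1829 lower and ended no call of a named gene. DESeq2 gave 2390 and 2339, RLE scaling 2288 and 2168, no filter 2064 and 1792, and TAC and sham fitted alone 1849 and 1508.

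Of 134 named genes called, 0 changed sign in any setting. Most were chosen from genes called with and without TAC 2, so the number kept without TAC 2 was largely set by the choice. Over all autosomal genes, both fits called 1424 of the 2351 higher genes and 1417 of the 2088 lower ones. With DESeq2 and with RLE scaling all 134 remained called, without TAC 2 133 did, with the clock covariate 127, against sham libraries with Arntl above Dbp only 113, in the test against 1.5-fold 82, with TAC 4 as the only TAC library 68 and with the Y-linked covariate 53. Fewer samples or a higher bar enter several of these fits, and the cause was otherwise not tested. Of the 4 named genes that were not called, Ccnd2 was at 0.023 with the Y-linked covariate and at 0.0018 with TAC 4 alone, and Mcm2 was at -0.15 to 0.72 when any 1 library was left out, with -0.15 without TAC 1 and -0.10 without TAC 4. At 3 TAC libraries, 42% of the genes changed 1.5-fold were called in the simulated data. Those data held no differences in sex, clock phase or Ccnd2 between libraries.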
